A study of Mus musculus with 6 samples.

Results

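The rodent miRNAs miR-297, miR-466, miR-467 and miR-669 were followed with and without TGF-beta in the mouse myoblast line C2C12, whose cells can fuse into muscle fibres. All rows of the deposited miRNA table whose mouse name begins with 1 of these 4 family names, followed by a letter or a hyphen, were taken as members. This gave 51 of 1065 names (4.79%), of which 3 were miR-297, 21 miR-466, 9 miR-467 and 18 miR-669 names. There were 27 names of a 5p arm, 21 of a 3p arm and 3 with no arm in the name. Small RNA was sequenced from 3 TGF-beta and 3 control libraries, and the labels name C2C12 as the cells of all 6. The labels give no dose, duration or isoform of TGF-beta, and the study's stated question is the role of myoblasts in fibrosis of skeletal muscle. They do not say that libraries of a group came from separate cultures, so a p-value here speaks of the spread among these libraries only, and that spread may be technical.

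A miRNA hairpin is cut by Drosha and Dicer into a duplex whose strands are named 5p and 3p by the arm they come from, and one strand is usually kept in an Argonaute protein while the other is degraded. The kept strand guides the protein to messenger RNAs that pair with its seed, bases 2 to 8. Most hairpins of these families lie in tandem in an intron of Sfmbt2, a Polycomb-group gene that is imprinted and expressed from the paternal copy in mouse, and the cluster is known for its high expression in mouse embryonic stem cells and placenta. In mouse cardiac progenitors, miR-669a has been described as holding back the muscle regulator MyoD.

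The libraries held 9015669 to 9450936 miRNA reads with TGF-beta and 9273231 to 9813063 in control. Levels are in RPM, that is, reads per 1000000 miRNA reads, and a single read equals 0.102 to 0.111 RPM depending on the library. A count of 0 leaves room for 3 reads, which is 0.306 to 0.333 RPM, and such limits cover counting error only. The muscle list of miR-206, miR-1a, miR-133a, miR-133b and miR-486a summed to between 101782 and 103016 RPM in TGF-beta libraries, against 135550 to 155320 RPM in control libraries. Because the labels' extraction text speaks of retinas, the retina miRNAs miR-124, miR-182, miR-183, miR-96, miR-204, miR-211 and miR-9 were summed too. Their 13 listed names, none at 0 in every library, gave 6384 to 8615 RPM with TGF-beta and 7651 to 8675 RPM in control, a level whose part in the results was not tested. Of the stem cell and trophoblast miRNAs of the miR-290 and miR-302 clusters, 2 names were listed, at 0 to 0.741 RPM with TGF-beta and 0 to 0.324 RPM in control. In bulk libraries, a change in the share of cells that hold a miRNA and a change in its amount per cell cannot be told apart.

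Positions were taken by hairpin name from GENCODE M21, on build GRCm38. Of 81 annotated hairpins of the 4 families, 71 lay inside Sfmbt2, at chr2:10466663-10518279 on the plus strand. They spanned 51.6 kb of a 62.5 kb intron, intron 10 of transcript Sfmbt2-201, and 0 of the 71 overlapped an exon. All 71 pointed the same way as the host gene, and the median gap between neighbours was 209 bp, with gaps from 132 to 2575 bp. By family there were 5 miR-297, 23 miR-466, 14 miR-467 and 29 miR-669 hairpins, and 63 of the 71 had a name in the table.

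**Figure D1:**
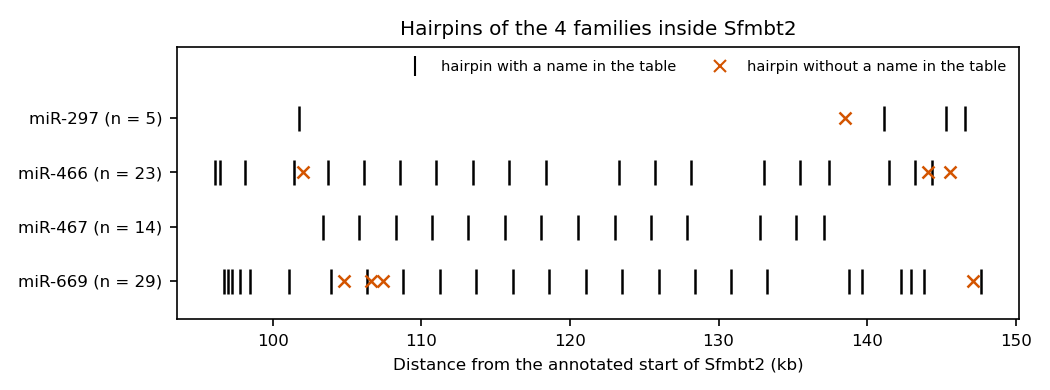
Hairpins of the 4 families inside Sfmbt2, with the distance from the annotated start of the gene in kb on the x axis and a row for each family. Ticks mark hairpins with a name in the table and crosses the 8 without. Hairpins of miR-466, miR-467 and miR-669 take turns along most of the cluster, which holds 71 hairpins in 51.6 kb.

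The map of hairpins shows why names and hairpins do not match up singly. A mature name can stand for many near copies: the name miR-669a had 12 hairpins, miR-467a had 10 and miR-466b had 8, while miR-669c and miR-467b had 1 each. The hairpins of 43 names lay in the Sfmbt2 cluster alone, and those of 4 names, miR-297a-5p and the miR-466f names, both in it and elsewhere. The other 4 names, miR-466i-5p, miR-466i-3p, miR-466j and miR-466k, came only from places outside it, and held 122 of the 14157 reads of all members (0.862%). Nearly all reads described here therefore bear names of the Sfmbt2 intron.

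Mature sequences of 3 members, all from outside the Sfmbt2 cluster, were matched in RefSeq (build GRCm38.p6) and are shown because they carry the UG and AC repeats for which miR-466 is known. They are written 5′ to 3′, with the seed (bases 2 to 8) in capitals. Their positions are chr3:85467396-85467418 for miR-466k, chr10:60960802-60960824 for miR-466j and chr13:17747552-17747573 for miR-466i-3p, all on the plus strand. miR-574-5p at chr5:64970328-64970350 on the plus strand, and miR-1187 at chr5:82798964-82798986 on the minus strand, are given as repeat miRNAs of other families.
miR-466k: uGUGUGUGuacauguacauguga
miR-466j: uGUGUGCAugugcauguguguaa
miR-466i-3p: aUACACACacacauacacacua
miR-574-5p: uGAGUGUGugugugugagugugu
miR-1187: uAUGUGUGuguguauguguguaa

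The 5 seeds all differed. miR-466k and miR-466j share a UG-rich start, and miR-466i-3p is made mostly of AC steps, the pairing partner of UG. The unbroken run of UG or AC steps was 9 bases in miR-466k, 7 in miR-466j, 11 in miR-466i-3p and 13 in miR-574-5p. The letters UGUGUGUG or ACACACAC, read on the mature strand only, stand in miR-466k and miR-466i-3p and in 11 of 1679 mature names of the RefSeq table (0.655%). These members were rare in the libraries. miR-466i-3p had 4, 4 and 1 reads with TGF-beta and 3, 8 and 3 reads in control. miR-466k had 2, 1 and 2 reads with TGF-beta and 3, 2 and 7 reads in control. miR-466j had 0, 0 and 1 reads with TGF-beta and 0 in each control library, so that no difference was detectable at this depth for any of the 3.

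Read support differed widely among members. All 51 names had at least 1 read, and 30 were seen in all 6 libraries. Of the rest, 21 were missing from at least 1 library and 4 were seen in 1 library. The mean reached 10 RPM for 3 names, lay between 1 and 10 RPM for 17 and was lower for 31. Summed over the 6 libraries, 18 names had 1 to 10 reads.

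**Figure D2:**
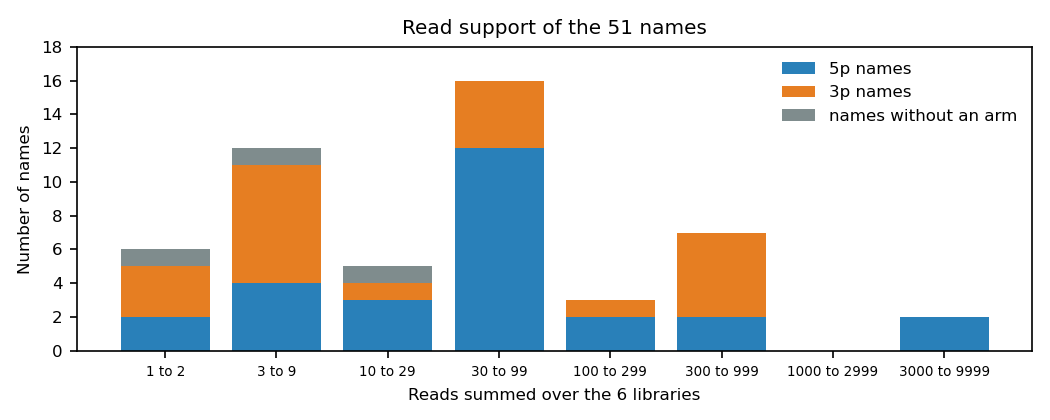
Number of names by reads summed over the 6 libraries, with bars stacked by arm. Of the 51 names, 18 fall in the bins of 1 to 9 reads, and 2 names stand apart above 3000 reads, both 5p names.

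The plot of read support sets apart miR-467a-5p and miR-467b-5p, whose read counts were the same in every library. There were 4 such sets of names, each a pair. miR-467a-5p and miR-467b-5p had 4766 reads each, and miR-467a-3p and miR-467d-3p had 315 each. The other pairs were miR-466d-5p with miR-466n-5p, at 5 reads, and miR-669h-3p with miR-669m-3p, at 1 read. In addition, miR-466a-3p and miR-466b-3p differed by 0 to 2 reads in any library. Whether the names of a pair were given the same reads was not tested, and for the pairs of 5 reads and 1 read equal counts say little. Of the members, 15.7% had the counts of another name in all 6 libraries, against 24.1% of all names in the table.

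By level, miR-467a-5p and miR-467b-5p, with equal counts, led all others by far. Each stood at 82.7, 71.7 and 94.6 RPM in TGF-beta libraries, against 87.9, 92.4 and 79.5 RPM in control libraries. The groups overlapped, with the highest and the lowest library both among those given TGF-beta. Counted under both names, as deposited, they held 69.8%, 66.9% and 69.3% of the members' reads with TGF-beta and 67.1%, 67.8% and 63.0% in control. With 1 name per identical set, miR-467a-5p held 55.4%, 51.6% and 54.9% with TGF-beta and 52.6%, 52.9% and 48.1% in control. The mean was 83.0 ± 11.4 RPM with TGF-beta and 86.6 ± 6.58 RPM in control (SD, n = 3 each).

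Far below them came 2 names of the miR-669 family. miR-669c-5p, which has a single hairpin, stood at 13.3, 15.9 and 12.3 RPM with TGF-beta, against 12.1, 12.1 and 13.1 RPM in control. miR-669a-5p, from 12 hairpins, stood at 8.27, 9.63 and 8.54 RPM with TGF-beta, against 11.01, 9.81 and 9.92 RPM in control. Within either group the values of these miRNAs did not overlap, with miR-669c-5p the higher. The number of hairpins and the level thus ran in opposite order for this pair. Next were miR-466b-3p, miR-466a-3p, miR-467a-3p with miR-467d-3p, miR-669a-3p, miR-467c-5p and miR-467e-5p, whose means over the 6 libraries lay close together. Neighbours in that order overlapped within each group, except miR-669a-3p and miR-467c-5p in control and miR-467c-5p and miR-467e-5p with TGF-beta. The members of the miR-297 family were low, and the highest, miR-297b-3p, stood at 1.29, 0.741 and 2.44 RPM with TGF-beta, against 2.65, 1.73 and 1.92 RPM in control.

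**Figure D3:**
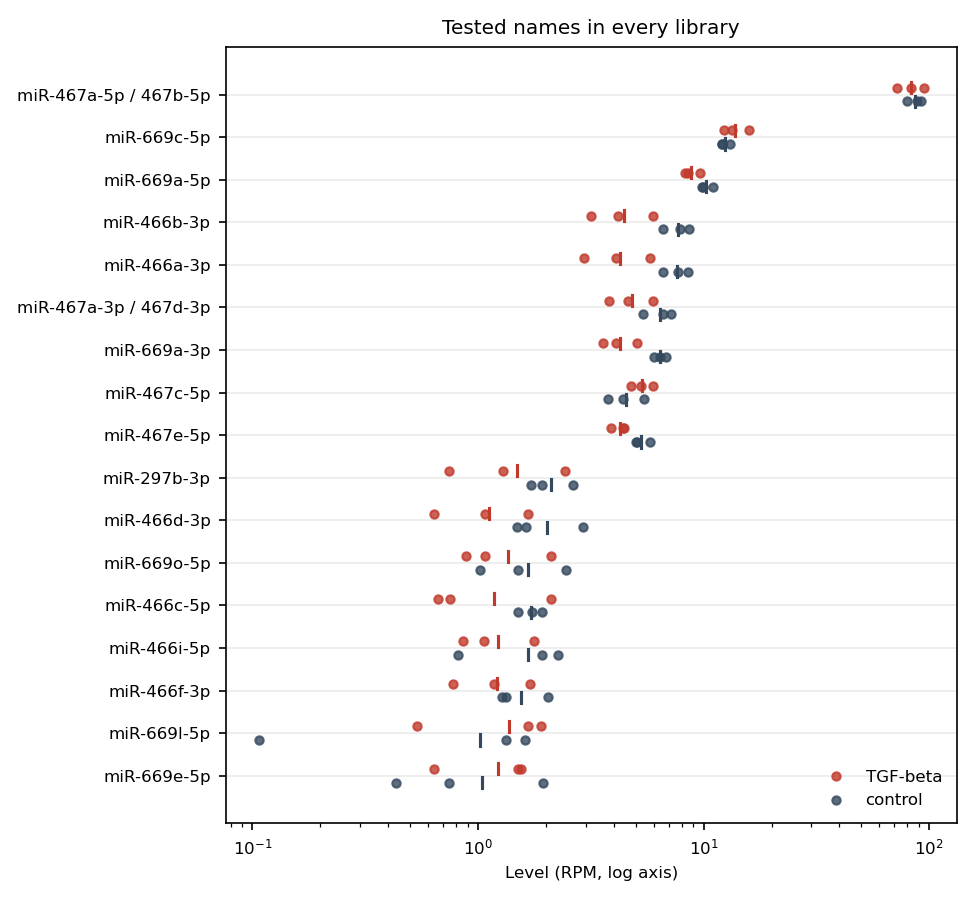
Level of the tested names in RPM on a log axis, with a point for each library and a bar at each group's mean, TGF-beta above control in each row. Names with equal counts in every library share a row. miR-467a-5p and miR-467b-5p lie between 71.7 and 94.6 RPM, and the TGF-beta points of miR-466b-3p, miR-466a-3p and miR-669a-3p lie to the left of all control points.

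The plot of levels also shows how few names could be tested. limma was run on log2(RPM + 1) over all names that reached 1 RPM in 3 or more libraries, with Benjamini-Hochberg adjustment over all 418 tested names and a threshold of 0.05. This kept 19 members and left 32 untested, of which 16 were 5p and 13 were 3p names. The 32 had 1 to 70 reads each over all libraries, reached at most 2.35 RPM in any library and together made up 7.54 to 13.8 RPM of a library.

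With TGF-beta, 2 of the 19 tested members fell and 0 rose. The call rate was 10.5% of the tested members, against 7.89% of all 418 tested names. For falls alone the background was 3.83% and for rises 4.07%. Since miR-466a-3p and miR-466b-3p had nearly equal counts in every library, the 2 calls may rest on a single signal. They are 3p names of hairpins in the Sfmbt2 intron.

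miR-466a-3p stood at 4.08, 2.96 and 5.77 RPM in TGF-beta libraries, against 6.62, 8.52 and 7.68 RPM in control libraries. Every TGF-beta library was below every control library. The means were 4.27 ± 1.41 and 7.61 ± 0.95 RPM (SD, n = 3 each), from 118 reads with TGF-beta (exact 95% Poisson interval of 97.7 to 141) and 216 reads in control (188 to 247). These intervals are for reads summed over a group and cover counting error only, not the spread among libraries. The log2 fold change was −0.74 (SE 0.21, limma adjusted p = 0.0397). miR-466b-3p stood at 4.19, 3.17 and 5.99 RPM with TGF-beta, against 6.62, 8.63 and 7.89 RPM in control, with a log2 fold change of −0.70 and an SE of 0.21 (limma adjusted p = 0.0443). Fold changes on the log2(RPM + 1) scale understate the change of low names. Both calls lie close to the threshold and ended in 14 of 19 alternatives, edgeR (adjusted p = 0.0790 and 0.0978) and DESeq2 (adjusted p = 0.0997 and 0.116) among them. Leaving out any control library, TGF-beta replicate 1 or TGF-beta replicate 2 also ended them, with limma adjusted p from 0.0609 to 0.241 for miR-466a-3p and from 0.0640 to 0.266 for miR-466b-3p, highest without TGF-beta replicate 2.

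The next 3p name by p was miR-669a-3p. It stood at 5.05, 3.60 and 4.10 RPM with TGF-beta, against 6.42, 6.04 and 6.83 RPM in control. These groups did not overlap, but the name did not pass the test, with a log2 fold change of −0.51 and an SE of 0.19 (limma adjusted p = 0.136). miR-467a-3p, with miR-467d-3p, stood at 4.62, 3.81 and 5.99 RPM with TGF-beta, against 6.62, 5.39 and 7.15 RPM in control. Here the highest TGF-beta library lay inside the control range, and the log2 fold change was −0.36 (SE 0.20, limma adjusted p = 0.411). miR-466d-3p was at −0.50 (SE 0.28, limma adjusted p = 0.411), with 1.07, 0.635 and 1.66 RPM with TGF-beta against 1.63, 2.91 and 1.49 RPM in control. miR-297b-3p, given above, was at −0.36 (SE 0.27, limma adjusted p = 0.616), and its groups overlapped.

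Among the tested 5p names the log2 fold changes were of both signs, and none passed the test. miR-467a-5p and miR-467b-5p each had a log2 fold change of −0.07 and an SE of 0.15 (limma adjusted p = 0.883), a sign that turned in edgeR (0.01) and when miR-21a-5p was left out (0.10). The value of miR-669c-5p was at 0.14 (SE 0.16, limma adjusted p = 0.763), with means of 13.8 ± 1.83 RPM with TGF-beta and 12.4 ± 0.59 RPM in control. For miR-669a-5p every TGF-beta library was below every control library, with means of 8.81 ± 0.72 and 10.2 ± 0.66 RPM and a log2 fold change of −0.20 and an SE of 0.17 (limma adjusted p = 0.642). miR-467e-5p likewise did not overlap, at 4.40, 4.44 and 3.88 RPM with TGF-beta against 5.81, 5.07 and 5.01 RPM in control, with a log2 fold change of −0.26 and an SE of 0.19 (limma adjusted p = 0.572). The lowest value of a 5p name was that of miR-466c-5p, at −0.38 (SE 0.28, limma adjusted p = 0.598), lower than those of 4 of the 8 tested 3p names. Its libraries held 0.752, 2.12 and 0.666 RPM with TGF-beta, against 1.73, 1.51 and 1.92 RPM in control, and the highest of all 6 was TGF-beta replicate 2. miR-467c-5p stood at 5.26, 4.76 and 5.99 RPM with TGF-beta, against 4.38, 3.77 and 5.44 RPM in control, a log2 fold change of 0.20 and an SE of 0.20 (limma adjusted p = 0.708). The highest value was that of miR-669l-5p, at 0.27 (SE 0.34, limma adjusted p = 0.776), with 0.537, 1.90 and 1.66 RPM with TGF-beta and 1.32, 1.62 and 0.107 RPM in control. Its lowest control library held 1 read, and without that library, control replicate 3, the value was −0.11. miR-669o-5p, at 1.07, 2.12 and 0.887 RPM with TGF-beta and 1.02, 1.51 and 2.45 RPM in control, was at −0.17 (SE 0.28, limma adjusted p = 0.823) and at 0.03 without control replicate 3.

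**Figure D4:**
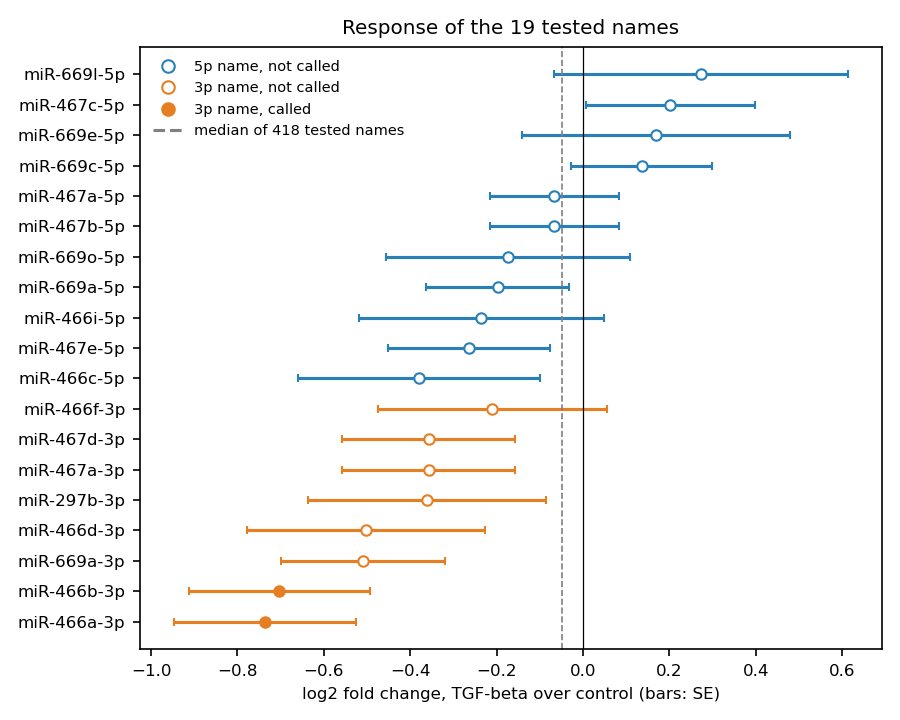
log2 fold change of TGF-beta over control for the 19 tested names, with bars for the SE, 5p names above 3p names. Filled points are the 2 called names, and the dashed line is the median of all 418 tested names, −0.05. All 8 points of 3p names lie left of 0, from −0.74 to −0.21, while 5p names lie on both sides.

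In the plot of fold changes the arms overlap in range, and positive values are found among 5p names alone. Of the 8 tested 3p names, which include 2 pairs of equal or nearly equal counts, 8 were below 0, with a median of −0.43. Of the 11 tested 5p names, 7 were below 0, with a median of −0.07 and a range of −0.38 to 0.27. Among tested names that were no members, 110 of 193 3p names and 108 of 182 5p names were below 0, with medians of −0.02 and −0.05. For 3p names of other families at a like level, a mean of 1 to 10 RPM, it was 50 of 84, with a median of −0.02. Every tested 3p member was also below 0 in each of the 19 alternatives, other scalings included, though all of these reuse the same libraries. Over all 19 tested members the median was −0.23 and 15 were below 0 (78.9%), against 59.6% of all tested names. The arms were set side by side after these values were seen, so the contrast is a description.

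Counted by groups that did not overlap, 5 of the 19 tested members (26.3%) were lower in every TGF-beta library than in every control library, against 12.2% of all tested names. They were miR-466a-3p, miR-466b-3p, miR-669a-3p, miR-669a-5p and miR-467e-5p. Of these, miR-466a-3p and miR-466b-3p had nearly equal counts and may be a single signal counted under 2 names. The opposite order was found for 0 of 19 members, against 9.09% of all tested names. After removal of miR-21a-5p and rescaling of the other values, 2 members were lower without overlap, miR-466a-3p and miR-669a-3p, against 4.796% of all names, and 1 was higher, miR-669c-5p, against 19.9% of all names. miR-21a-5p was the most abundant miRNA of the libraries and rose with TGF-beta (log2 fold change 0.38, SE 0.07, limma adjusted p = 0.00146), and a larger share of it leaves a smaller share to all other names. Leaving it out moved the median over all tested names to 0.11 and that over members to −0.14.

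Sums over all members of an arm include the untested names. The 21 names of a 3p arm summed to 27.5, 23.3 and 35.3 RPM in TGF-beta libraries, against 41.5, 44.1 and 43.3 RPM in control libraries. The groups did not overlap, and the control libraries lay close together while the TGF-beta libraries spread more widely. The means were 28.7 ± 6.08 and 43.0 ± 1.35 RPM, a log2 ratio of −0.58. Without miR-466a-3p and miR-466b-3p the other 19 names gave 19.2, 17.1 and 23.5 RPM with TGF-beta and 28.2, 26.96 and 27.7 RPM in control, again without overlap and with a log2 ratio of −0.47. With miR-21a-5p left out, the sum over all 21 names still did not overlap, at a log2 ratio of −0.41.

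The 27 names of a 5p arm summed to 209, 191 and 237 RPM with TGF-beta, against 220.3, 228 and 208 RPM in control. These overlapped, with a log2 ratio of −0.04 that became 0.13 with miR-21a-5p left out and 0.027 without TGF-beta replicate 2. Without miR-467a-5p and miR-467b-5p, which dominate that sum, the other 25 names gave 43.6, 47.6 and 47.9 RPM with TGF-beta and 44.4, 43.4 and 49.2 RPM in control, a log2 ratio of 0.02. All 51 names together summed to 237, 215 and 273 RPM with TGF-beta and 262, 272.5 and 252 RPM in control, so that the group ranges overlapped for the cluster's families as a whole. That log2 ratio was −0.12 and became 0.05 with miR-21a-5p left out.

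**Figure D5:**
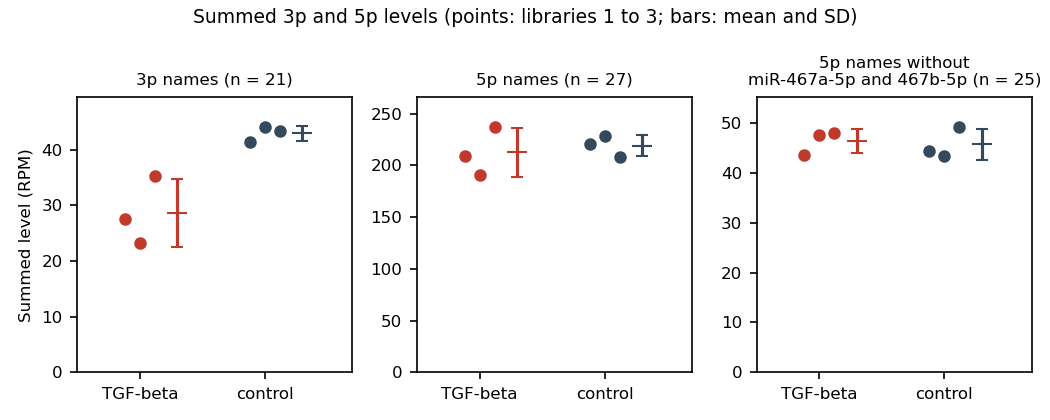
Summed level in RPM of the 3p names, the 5p names and the 5p names without miR-467a-5p and miR-467b-5p, with a point for each library and the mean and SD beside the points. The y axes start at 0 and differ in scale. The 3p sums are 23.3 to 35.3 RPM with TGF-beta and 41.5 to 44.1 RPM in control, while both 5p sums overlap.

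The panels of summed levels hold for the families in unequal measure. For miR-466, the 3p names summed to 11.7, 10.3 and 15.97 RPM with TGF-beta, against 17.6, 24.4 and 19.4 RPM in control, a log2 ratio of −0.69. The groups did not overlap, but they did after removal of miR-21a-5p, at a log2 ratio of −0.52. Of the 109, 97 and 144 reads of this sum with TGF-beta, miR-466a-3p held 38, 28 and 52. Its near equal miR-466b-3p held 39, 30 and 54. The summed level of the other miR-466 3p names overlapped between the groups. For miR-669, the 3p names summed to 5.26, 4.55 and 4.88 RPM with TGF-beta, against 7.44, 7.01 and 7.68 RPM in control, without overlap and at a log2 ratio of −0.59. Leaving out miR-21a-5p gave −0.42, still without overlap. This sum was mostly miR-669a-3p, given above, with 47, 34 and 37 of its 49, 43 and 44 reads with TGF-beta. In control that name held 63, 56 and 64 of 73, 65 and 72 reads. Names of the 5p arm of miR-669 had a log2 ratio of 0.09, at 28.6, 32.6 and 29.3 RPM with TGF-beta and 29.1, 27.3 and 28.4 RPM in control. The 5p names of miR-466 were lower, at a log2 ratio of −0.35. They summed to 3.87, 4.87 and 7.32 RPM with TGF-beta and 4.99, 6.36 and 9.07 RPM in control, with overlap. The 5p log2 ratio was −0.06 for miR-467 and 0.82 for miR-297, the latter from 0 to 7 reads in a library. For miR-467 the 3p sums overlapped, with means of 9.65 ± 2.16 RPM with TGF-beta and 13.02 ± 1.77 RPM in control. Which arm led also differed by family, the 5p arm in miR-467 and miR-669 and the 3p arm in miR-466, in all 6 libraries.

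As a share of all member reads, 3p names held 11.6%, 10.8% and 12.9% with TGF-beta and 15.8%, 16.2% and 17.2% in control, a measure that no scaling of a library can alter. The log2 ratio of summed 5p to summed 3p reads was 2.93, 3.04 and 2.75 with TGF-beta and 2.41, 2.37 and 2.26 in control, higher in all 3 TGF-beta libraries by 0.56 on average. Both measures count every name as deposited. With 1 name per identical set, the 3p shares were 15.3%, 14.0% and 17.0% with TGF-beta and 20.8%, 22.2% and 21.9% in control. The log2 ratios were then 2.46, 2.62 and 2.28 with TGF-beta and 1.93, 1.81 and 1.83 in control. These values still count both miR-466a-3p and miR-466b-3p, whose reads are nearly but not exactly equal. Arm ratios were then tested for each 5p and 3p name of the same miRNA, where both means reached 1 RPM. Such an arm pair can stand for many hairpins, as those of miR-466b, miR-669a and miR-467a do. The ratio was log2(RPM + 1) of the 5p name minus that of the 3p name, unlike the read ratio above. The added 1 RPM shrinks ratios where an arm is low, so these values and the summed ratios are on unlike scales. limma with Benjamini-Hochberg adjustment called 0 of 108 arm pairs (a share of 0%), with 11 at an unadjusted p under 0.05 and a smallest adjusted p of 0.237. The count tests were not run on these ratios. Of these arm pairs, 3 were of members. For miR-466b the log2 ratio was −1.57, −1.18 and −1.28 with TGF-beta, against −2.15, −2.29 and −1.41 in control, a difference of 0.61 (SE 0.26, limma adjusted p = 0.472). For miR-669a it was 0.616, 1.21 and 0.902 with TGF-beta, against 0.694, 0.619 and 0.481 in control, a difference of 0.31 (SE 0.18, limma adjusted p = 0.551). For miR-467a it was 3.90, 3.92 and 3.77 with TGF-beta, against 3.54, 3.87 and 3.30 in control, a difference of 0.29 (SE 0.18, limma adjusted p = 0.551). All 3 differences were positive and none passed. Of all 108 arm pairs, 52 had a positive difference, and the median was −0.006.

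The spread between replicates was set against that of counting. For members with at least 10 reads, the chi-square per degree of freedom between replicates averaged 2.82 with TGF-beta and 1.87 in control, where counting error alone gives an average of 1. For names of other families with a mean of 1 to 10 RPM it averaged 2.41 with TGF-beta and 1.81 in control. In both groups the members thus varied by more than the drawing of reads.

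The rarest members bear on the p-values of the authors' deposited table. In that table miR-466f-5p has the smallest unadjusted p of all 1065 names, 2.29e-07, with the authors' means of 0.108 RPM with TGF-beta and 0 in control. Its reads were 1, 1 and 1 in TGF-beta libraries and 0 in each control library. Both groups are at or under the 3 reads that a count of 0 allows, and a difference was not detectable at this depth. The exact permutation test, two-sided, had p = 0.1, the smallest that 3 against 3 libraries allow, and limma without a filter gave an adjusted p of 0.646. miR-466f had 1, 1 and 2 reads with TGF-beta and 0 in each control library, with p = 0.0195 in the authors' deposited table. It had an exact permutation p of 0.1 and an adjusted p of 0.495 in limma without a filter. miR-669b-5p was the only other untested member whose groups did not overlap, at 1.07, 1.59 and 0.887 RPM with TGF-beta and 0.611, 0.863 and 0.640 RPM in control. The share without overlap among all untested names was not taken, so these 3 of 32 untested members have no background to be read against. Of the called names, miR-466a-3p has p = 0.0274 and miR-466b-3p p = 0.0319 in the authors' deposited table, at ranks 54 and 58.

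For comparison, 3 lists of other miRNAs were read from the same fit. Of the other rodent cluster of tandem hairpins, on the X chromosome near Fmr1, 25 names were listed and 9 tested. In limma 0 passed, with 0 at an unadjusted p under 0.05 and 0 in edgeR and DESeq2, and the median log2 fold change was −0.06. Its leading names were miR-881-3p, at 74.0 ± 15.6 RPM with TGF-beta and 78.5 ± 3.39 RPM in control, miR-465c-5p, with means of 17.9 and 17.7 RPM, and miR-741-3p, at 12.1 ± 1.44 and 10.9 ± 0.97 RPM. Of the imprinted Dlk1-Dio3 cluster, 28 names were listed and 3 tested, with a median of −0.29. Again 0 passed in limma, with 0 at an unadjusted p under 0.05 and 0 in edgeR and DESeq2. Its leading name, miR-127-3p, stood at 3.28 ± 0.60 RPM with TGF-beta and 4.22 ± 0.32 RPM in control, followed by miR-370-3p (1.62 ± 0.41 and 2.21 ± 0.43 RPM) and miR-409-3p (1.04 ± 0.69 and 1.34 ± 0.06 RPM).

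Of the repeat miRNAs of other families, 5 were listed and 2 tested, and their median was 0.29. miR-574-5p stood at 52.7 ± 4.63 RPM with TGF-beta and 43.9 ± 1.80 RPM in control, with a log2 fold change of 0.25 and an SE of 0.14 (limma adjusted p = 0.411). miR-32-3p was at 0.32 (SE 0.25, limma adjusted p = 0.625), with 2.02 ± 0.55 RPM with TGF-beta and 1.40 ± 0.31 RPM in control. miR-1187 was not tested, at 0.143 RPM with TGF-beta and 0 in control, below the limit that a count of 0 allows. Here too 0 passed in limma, with 0 at an unadjusted p under 0.05 and 0 in edgeR and DESeq2. The differences between these lists and the members were not tested.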

How the data were processed

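Small RNA libraries of C2C12 cells, 3 with TGF-beta and 3 control, were grouped by the treatment label. The authors deposited 1 table of 1065 miRNA names whose values are headed TPM. They are RPM: each column sums to 1000000, and 100% of values are whole multiples of the step of 1 read (tolerance 0.01). The authors' deposited table also gives each name an unadjusted p-value and the group means, in RPM. Per the submitters' processing notes, reads were placed on mm9. Which aligner and miRNA annotation served, and how reads that fit several names were counted, is not given in the sources used here. If such reads were given to every matching name, near copies are counted repeatedly. Pairs of replicates differed by 75.1 to 324 chi-square per degree of freedom, so none was treated as a copy.

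limma 3.58.1 in R 4.3.3 was fitted with an intensity trend to log2(RPM + 1). Names with at least 1 RPM in 3 libraries were tested, two-sided, with Benjamini-Hochberg adjustment over 418 names. Recovered reads were tested with edgeR 4.0.16 (quasi-likelihood, 29 names called) and DESeq2 1.42.0 (29 names called), against 33 by limma. The limma fits of levels and of arm ratios were run on simulated data, and the count tests were not. The outcome of those runs is not given here. Their spread between libraries was a set value, not one fitted to these libraries. The simulated arm-ratio changes were larger than those of the member arm pairs. Other alternatives were pseudocounts 0.5 and 5, other filters and scalings, no trend, 1 name per identical set, the replicate number as a block, and fits without each library. Arm sums, arm ratios and counts of groups without overlap were added after the values were seen. Hairpins were matched by name to GENCODE M21 and mature sequences to RefSeq, both on GRCm38 and not mixed with mm9. Members named with values are those past the threshold, the 12 highest by mean over the 6 libraries, the highest of each family and arm, and those with the largest and smallest log2 fold change. Other names were picked with their values in view. The members and lists were chosen with earlier results of these data known.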

Additional observations from a re-analysis of the deposited data

How the results depend on the processing

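Keeping 1 name per identical set merges only exactly equal counts, so it could not merge miR-466a-3p with miR-466b-3p. The count of 2 called members was the same with pseudocounts 0.5 and 5, with 1 name per identical set and with the replicate number as a block (2 called). It was 0 without a filter, with a filter of 0.5 RPM or of a mean of 5 RPM, with median scaling, quantile normalization, miR-21a-5p left out or no intensity trend, and in edgeR and DESeq2, where 2 to 4 members had an unadjusted p under 0.05. With single libraries left out it ran from 0 to 2, and was 2 without TGF-beta replicate 3 alone. The log2 fold change ran from −0.93 to −0.55 for miR-466a-3p and from −0.90 to −0.53 for miR-466b-3p with single libraries left out. The median over tested members (−0.23) was −0.13 with pseudocount 5, −0.053 without a filter, −0.36 with a mean of 5 RPM and −0.14 with miR-21a-5p left out, and −0.28 to −0.21 with single libraries left out. Leaving out miR-21a-5p also moved the log2 ratio of summed levels to 0.053 for all names, to 0.13 for 5p names and to 0.20 for 5p names without miR-467a-5p and miR-467b-5p. With single libraries left out, the log2 ratio of sums ran from −0.76 to −0.45 for 3p names, from −0.22 to −0.041 for all names, from −0.13 to 0.027 for 5p names and from −0.013 to 0.079 for 5p names without miR-467a-5p and miR-467b-5p, so that the sign of both 5p sums turned. Signs turned, in values that never passed, for miR-467a-5p and miR-467b-5p (0.10 with miR-21a-5p left out, 0.012 in edgeR, −0.16 to 0.033 with single libraries left out), miR-669o-5p (−0.39 to 0.032) and miR-669l-5p (−0.11 to 0.56). The cause of these shifts was not tested. No pairing by replicate number was seen: deviations of same-numbered libraries correlated at −0.0843 to −0.0677 across names. So few libraries cannot show that there was none. The block moved the count over all names to 32, against 33. With it the limma adjusted p was 0.0133 for miR-466a-3p and 0.0190 for miR-466b-3p. Depth limits the 18 names with at most 3 reads in any library, for which no difference could be seen.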
